A study of Mus musculus with 8 samples.

Results

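The mature miRNAs made from genes of lipid, energy and coenzyme A metabolism were compared between kidneys of diabetic and control mice. They were taken by name from the array annotation, 8 of its 1881 mouse miRNAs. They are mmu-miR-33-5p and mmu-miR-33-3p (host gene Srebf2), mmu-miR-378a-3p and mmu-miR-378a-5p (Ppargc1b), mmu-miR-335-5p and mmu-miR-335-3p (Mest), mmu-miR-103-3p (Pank3 and Pank2) and mmu-miR-107-3p (Pank1), written below without the mouse prefix. Total RNA from 4 db/db kidneys and 4 control kidneys was hybridised to 1-colour Agilent arrays, 1 array per sample, all on 1 slide. All mice were males aged 28 weeks. The db/db mice carry the Leprdb allele of the leptin receptor gene on both chromosomes (strain label C57BLKS/J Iar -+Leprdb/+Leprdb), and become obese and diabetic without working leptin signalling. The controls share the C57BLKS/J background and are labelled C57BLKS/J Iar -m+/m+, while their titles call them dbm. The 2 names do not settle whether a control animal held 1 db allele. No label says that each sample was a separate animal, so p-values cover the spread between these samples.

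A miRNA inside an intron is cut from the transcript of its host gene or from a transcript of its own, and the hairpin yields a 5p and a 3p arm of which 1 usually accumulates. The array reads the mature arms and not the host mRNAs, which were not measured. Srebf2 encodes the transcription factor that switches on cholesterol synthesis, and miR-33 represses the cholesterol exporter Abca1. Ppargc1b is a coactivator of mitochondrial genes. Mice without miR-378a are resistant to diet-induced obesity, with Crat as a target of the 3p arm and Med13 as a target of the 5p arm. Mest is an imprinted gene of growing tissue and enlarging fat cells, and miR-335 is known to be raised in fat and liver of obese mice. The Pank genes encode pantothenate kinases, which catalyse the first step of coenzyme A synthesis. miR-103 and miR-107 lower insulin sensitivity in liver and fat of mice, with caveolin 1 as a target.

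The mature sequences of 6 of the 8 miRNAs are given from RefSeq, build GRCm38.p6, because arms, seeds and near-identical copies decide how the values can be read. Capitals mark the seed, bases 2 to 8, through which a miRNA pairs with its targets. All 6 loci of the 8 miRNAs lay within the annotated span of the named host.
miR-335-5p, chr6:30741314-30741336, plus strand: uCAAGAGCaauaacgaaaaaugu
miR-335-3p, chr6:30741354-30741375, plus strand: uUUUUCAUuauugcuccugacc
miR-33-5p, chr15:82198127-82198147, plus strand: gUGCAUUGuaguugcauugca
miR-33-3p, chr15:82198167-82198188, plus strand: cAAUGUUUccacagugcaucac
miR-103-3p, chr11:35782447-35782469 in Pank3 and chr2:131288103-131288125 in Pank2, both plus strand: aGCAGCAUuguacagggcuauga
miR-107-3p, chr19:34820700-34820722, minus strand: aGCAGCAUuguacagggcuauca
The miR-103-3p and miR-107-3p sequences share their seed and differ at 1 of 23 bases, G22C with miR-103-3p first and positions counted from 1 at the 5′ end.

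The probes of the 3 miRNAs on which the results turn are shown as the scanner files give them, with capitals for the base that the longer probe of a pair adds.
miR-335-5p, shorter probe: acatttttcgttattgct
miR-335-5p, longer probe: acatttttcgttattgctC
miR-103-3p, shorter probe: tcatagccctgtacaat
miR-103-3p, longer probe: tcatagccctgtacaatG
miR-107-3p, shorter probe: tgatagccctgtacaatgc
miR-107-3p, longer probe: tgatagccctgtacaatgcT
The miR-335-5p probes pair with bases 6 to 23 and 5 to 23 of the miRNA, while those of miR-33-5p cover bases 2 to 21 and 1 to 21. The probes for miR-103-3p and miR-107-3p have 16 letters in a row in common, and the base that tells the miRNAs apart lies at the second letter of each probe. How much of either miRNA binds the other's probes was not tested.

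The arrays detected 289 to 358 miRNAs in db/db kidneys and 305 to 352 in control kidneys, a difference within the spread (exact permutation test, 2-sided, p = 0.657). All 6 tubule miRNAs used as a check of the tissue, such as miR-192-5p, were detected on all 8 arrays. The slide held the db/db samples in row 2 and the controls in row 1, so the effects of genotype and slide row cannot be told apart. Values are log2 processed signals after each array was scaled to the same 75th percentile, and a change is db/db minus control on that scale. A change was called where limma with Benjamini-Hochberg adjustment over all 316 tested miRNAs gave an adjusted p under 0.05. Whole kidney was measured, so fewer cells of a type and less RNA per cell cannot be told apart.

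Of the 8 miRNAs, miR-335-5p and miR-378a-5p rose in db/db kidneys and 0 fell. The arms miR-33-3p and miR-335-3p were detected on none of the 8 arrays and were not tested. The other 4, miR-33-5p, miR-378a-3p, miR-103-3p and miR-107-3p, did not pass the test, with changes between -0.13 and 0.08, and their smallest unadjusted p in limma was 0.0545, that of miR-103-3p. All 6 tested ones were detected on all 8 arrays. Of all 316 tested miRNAs 24.4% were called higher, 17.4% lower and 41.8% in either direction, so 2 called of 6 is a share near the background. The median change was 0.04 over the 6 and -0.02 over all tested miRNAs, whose quartiles were -0.17 and 0.18. The groups did not overlap, with db/db above control, for 3 of the 6, against 24.7% of all tested miRNAs in that direction and 41.5% in either; these were miR-335-5p, miR-378a-5p and miR-103-3p. When all 1881 miRNAs set the 75th percentile, 34 miRNAs were called and neither miR-335-5p (0.64, adjusted p = 0.0798 in limma) nor miR-378a-5p (0.27, adjusted p = 0.810 in limma) was among them. Of the 1881 miRNAs 390 were detected on at least 1 array, so that percentile falls among undetected miRNAs. Whether this bears on the lost calls was not tested.

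**Figure D1:**
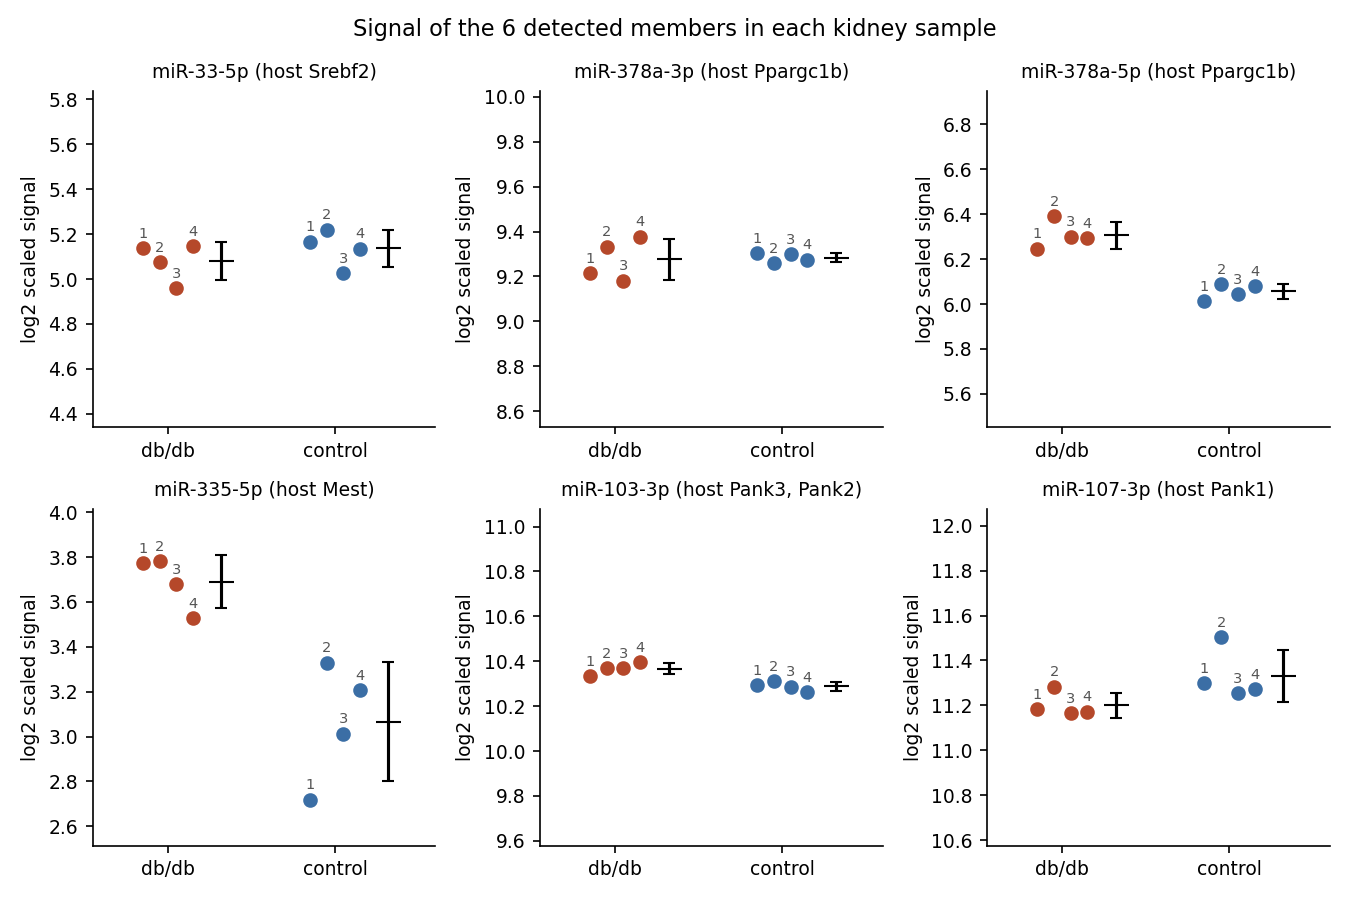
Log2 scaled signal (y axis) of the 6 detected miRNAs in each db/db and control kidney, with replicate numbers beside the points and the mean and SD (n = 4) as a cross and bar; each panel has its own y range of equal height. The db/db points lie above all control points for miR-378a-5p, miR-335-5p and miR-103-3p, and the groups overlap in the other 3 panels.

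The Mest miRNA miR-335-5p had the largest change of the 6. Its log2 signal was 3.77, 3.78, 3.68 and 3.53 in db/db kidneys 1 to 4, against 2.72, 3.33, 3.01 and 3.21 in control kidneys 1 to 4. Every db/db kidney lay above every control, and the controls were spread more widely, with control 1 lowest. The means were 3.69 ± 0.12 in db/db and 3.07 ± 0.27 in control kidneys (SD, n = 4 each), a change of 0.62 ± 0.13 (SE) or 1.54-fold (95% interval 1.25 to 1.90), with adjusted p = 0.00565 in limma. It ranked 40th by size and 79th by p among the 316. With each array left out in turn, the change ran from 0.51 to 0.70 and stayed past the threshold, the largest adjusted p being 0.0334 in limma.

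The 2 probes shown above for miR-335-5p behaved differently. The longer probe gave scaled signals of 28.0, 28.3, 26.4 and 25.8 in db/db kidneys 1 to 4 and 16.8, 20.4, 18.4 and 20.7 in control kidneys 1 to 4. The groups were separate on this probe, by 0.51 on the log2 scale. Of its spots, 83.3% were well above background in db/db and 40.7% in control kidneys. The shorter probe, which lacks only the final c, lay below the floor of 2.80 on all 8 arrays, at -1.22 ± 1.01 in db/db and -2.10 ± 1.35 in control kidneys (SD, n = 4 each). The reported change of 0.62 is that of the mean of both probes, so it is larger than the 0.51 of the probe that carried the signal. The standard error over the 14 to 15 spots of the longer probe was 3.27% to 6.23% of its signal on each array. With normexp background correction, which adds 50 to every spot and so exceeds the whole signal of this miRNA, the change was -0.0071 (adjusted p = 0.877 in limma).

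The opposite arm, miR-335-3p, had scaled signals of 5.83, 5.65, 4.69 and 2.63 in db/db kidneys 1 to 4 and 4.57, 6.20, 5.12 and 4.36 in control kidneys 1 to 4. The scanner software called none of these detected, none of its spots was well above background, and no fold is given. Whether the 2 arms of the Mest hairpin moved together was therefore not tested. The tested miRNAs whose pattern over the 8 arrays was most like that of miR-335-5p were miR-34a-5p and miR-34c-5p, both p53 targets, with root-mean-square differences of 0.15 and 0.16 on the log2 scale after centring, against a median of 0.40 over all. The match covers both groups, so a change like that of miR-335-5p follows from the choice and is no separate result. miR-34a-5p rose by 0.64 (adjusted p = 0.000922 in limma) and miR-34c-5p rose by 0.38 (adjusted p = 0.0132 in limma). The call of miR-34a-5p was kept in 19 of 20 other settings and that of miR-34c-5p in 16, its change being -0.028 with normexp.

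The arms of the Ppargc1b miRNA differed in their change. The 5p arm, miR-378a-5p, had log2 signals of 6.25, 6.39, 6.30 and 6.29 in db/db kidneys 1 to 4 and 6.01, 6.09, 6.05 and 6.08 in control kidneys 1 to 4. The lowest db/db kidney lay above the highest control. The means were 6.31 ± 0.06 in db/db and 6.06 ± 0.03 in control kidneys (SD, n = 4 each), so that miR-378a-5p rose by 0.25 ± 0.04 (SE), or 1.19-fold (95% interval 1.11 to 1.28), with adjusted p = 0.00263 in limma. It ranked 55th by p and 116th by size, so the change was small and the spread narrow. Without db/db replicate 2, the highest of the 8 arrays, the change was 0.17 with adjusted p = 0.0315 in limma. With normexp background correction it was 0.086 (adjusted p = 0.0865 in limma). Both of its probes separated the groups, at 67.9 ± 2.70 in db/db against 58.0 ± 2.10 in control and at 90.5 ± 4.02 in db/db against 75.1 ± 1.94 in control (scaled signal, SD, n = 4 each).

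The 3p arm, miR-378a-3p, which is the arm usually studied, had log2 signals of 9.21, 9.33, 9.18 and 9.38 in db/db kidneys 1 to 4 and 9.30, 9.26, 9.30 and 9.28 in control kidneys 1 to 4. The controls lay between the lower and the higher pair of db/db values. The change was -0.01 ± 0.05 (SE; 95% interval -0.13 to 0.11; adjusted p = 0.902 in limma), which was 0.12 with no scaling and 0.05 with quantile normalization, so no direction is given. Within each array the 3p signal minus the 5p signal was 2.97, 2.94, 2.88 and 3.08 in db/db kidneys 1 to 4 and 3.29, 3.17, 3.25 and 3.20 in control kidneys 1 to 4. This difference does not depend on the scaling of an array, and its size is no ratio of abundances, since probes differ in brightness. It was lower in every db/db kidney, by 0.26 on average (2.97 ± 0.08 in db/db against 3.23 ± 0.05 in control, SD, n = 4 each; SE of the difference 0.05). The exact permutation test over the 70 assignments gave p = 0.0286, 2-sided, the smallest it can give, and 0.0286 after adjustment over the 2 pairs tested. Of all tested single miRNAs 41.5% separated the groups, and the share of all miRNA pairs that do so was not computed. Leaving out control replicate 1, 2 or 3 gave p = 0.0571 in the exact permutation test after adjustment over the 2 pairs. The differences were then -0.24, -0.28 and -0.25. With normexp background correction the difference was -0.087 (exact permutation test, p = 0.0857 after adjustment over the 2 pairs).

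The other miR-378 family members listed, miR-378b, miR-378c and miR-378d, did not pass the test. Their changes were 0.07, 0.13 and 0.05, with adjusted p = 0.346, 0.150 and 0.383 in limma. Both probes of miR-378a-3p, of 13 and 14 bases, are contained in a probe of miR-378d and have 13 letters in a row in common with probes of miR-378b and miR-378c. How much of each signal comes from the other family members was not tested. The miRNAs most alike in pattern to miR-378a-5p were miR-324-5p and miR-140-5p, with root-mean-square differences of 0.03 each against a median of 0.21. Both rose, which follows from their choice by a pattern over both groups. The change was 0.23 for miR-324-5p (adjusted p = 0.00210 in limma) and 0.26 for miR-140-5p (adjusted p = 0.000979 in limma). Each kept its call in 19 of 20 other settings. With normexp the change of miR-324-5p was 0.11. Those most like miR-378a-3p were miR-106b-5p and miR-196b-5p, at 0.03 and 0.04 against a median of 0.15, and neither passed the test.

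**Figure D2:**
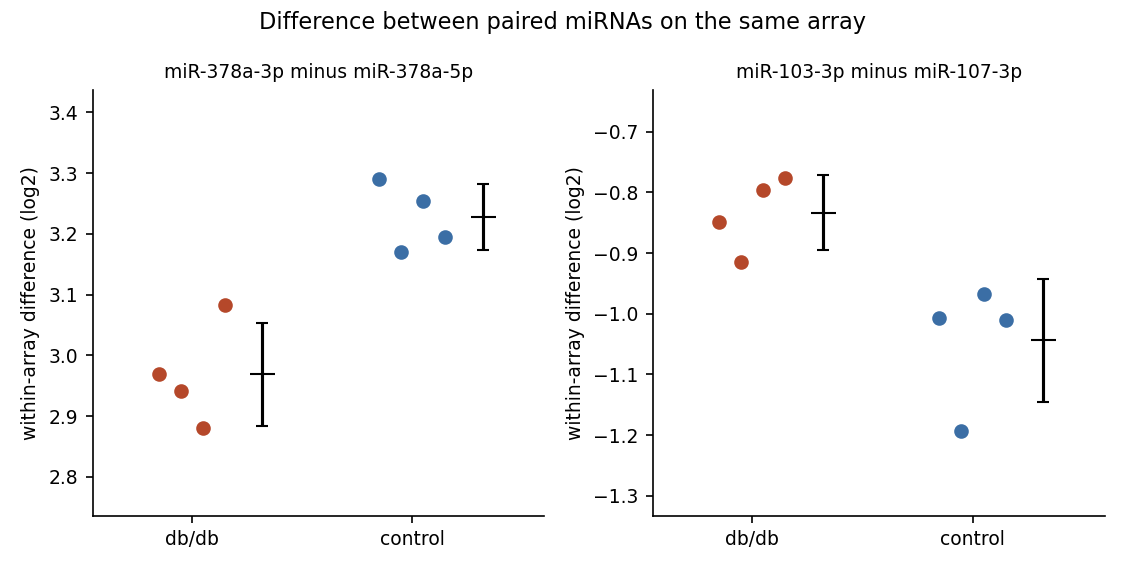
Within-array difference of log2 signals (y axis) for miR-378a-3p minus miR-378a-5p and for miR-103-3p minus miR-107-3p in each db/db and control kidney, with mean and SD (n = 4). In the left panel the db/db points, 2.88 to 3.08, lie below all controls, and in the right panel the db/db points, -0.91 to -0.78, lie above all controls.

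The miRNAs of the pantothenate kinase genes, miR-103-3p and miR-107-3p, did not pass the test singly, while the difference between them was shifted. miR-103-3p had log2 signals of 10.33, 10.37, 10.37 and 10.40 in db/db kidneys 1 to 4 and 10.29, 10.31, 10.29 and 10.26 in control kidneys 1 to 4. The groups were separate by a narrow margin. The change was 0.08 ± 0.03 (SE), or 1.06-fold, with a 95% interval of -0.0019 to 0.16 and adjusted p = 0.104 in limma. It passed the threshold in 4 of 20 other settings, among them no scaling (0.21, adjusted p = 0.0399 in limma) and quantile normalization (0.14, adjusted p = 0.0164 in limma). The groups were separate on the longer probe shown above, at 1709 ± 33.3 in db/db against 1607 ± 28.2 in control, and overlapped on the shorter, at 932 ± 19.5 in db/db against 894 ± 26.1 in control (scaled signal, SD, n = 4 each).

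miR-107-3p had log2 signals of 11.18, 11.28, 11.17 and 11.17 in db/db kidneys 1 to 4 and 11.30, 11.50, 11.25 and 11.27 in control kidneys 1 to 4. Replicate 2 was the highest array of both groups, and the groups overlapped through db/db replicate 2. The change was -0.13 ± 0.06 (SE; 95% interval -0.28 to 0.02; adjusted p = 0.139 in limma). It was -0.22 without db/db replicate 2 (adjusted p = 0.0495 in limma) and -0.0047 with no scaling. On the shorter probe the groups were separate, with 1633 ± 63.2 in db/db below 1867 ± 174 in control, and on the longer they overlapped, at 3076 ± 120 in db/db and 3303 ± 261 in control (scaled signal, SD, n = 4 each).

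Within each array, miR-103-3p minus miR-107-3p was -0.85, -0.91, -0.80 and -0.78 in db/db kidneys 1 to 4 and -1.01, -1.19, -0.97 and -1.01 in control kidneys 1 to 4. Every db/db kidney lay above every control, and control replicate 2 was the lowest. The share of all miRNA pairs whose difference separates the groups was not computed. The means were -0.83 ± 0.06 in db/db and -1.04 ± 0.10 in control kidneys (SD, n = 4 each). They differed by 0.21 (SE 0.06), a shift of 1.16-fold in the signal of miR-103-3p over that of miR-107-3p, and the exact permutation test gave p = 0.0286, 2-sided, the smallest possible, and 0.0286 after adjustment over the 2 pairs. Without control replicate 1, 2 or 3 the exact permutation test gave p = 0.0571 after adjustment over the 2 pairs. The differences were then 0.22, 0.16 and 0.24. With normexp the difference was 0.20 (exact permutation test, p = 0.0571 after adjustment over the 2 pairs).

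Since miR-103-3p and miR-107-3p share their seed, the differing base at position 22 lies outside it. A related seed, shifted by 1 base, occurs in the miR-15 and miR-16 family of cell cycle regulators. In 6 of 7 listed members of that family, bases 2 to 8 equal bases 1 to 7 of miR-103-3p, miR-503-5p being the exception, as the following examples show with the seed in capitals.
miR-322-5p: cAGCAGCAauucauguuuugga
miR-15b-5p: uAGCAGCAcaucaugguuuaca
miR-503-5p: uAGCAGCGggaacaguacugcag
All 7 were tested, 3 rose, 2 fell and 2 did not pass, with a median change of -0.01; 71.4% were called, against 41.8% of all tested miRNAs. With the scaling percentile over all miRNAs 0 of the 7 were called. miR-503-5p rose by 0.55 ± 0.12 (SE; adjusted p = 0.00765 in limma), miR-322-5p rose by 0.36 ± 0.05 (adjusted p = 0.000647 in limma) and miR-15b-5p rose by 0.24 ± 0.05 (adjusted p = 0.00730 in limma). miR-16-5p and miR-195a-5p, named after their values were seen, fell by 0.19 and 0.18 (adjusted p = 0.0236 and 0.0467 in limma). With no scaling 3 were called higher and 0 lower. The call of miR-503-5p was lost in 4 of 19 other settings, its change running from -0.0083 with normexp to 1.58 in the authors' ratio values. Those most alike in pattern to miR-107-3p were miR-191-3p and miR-497a-5p, a miRNA of this family, at 0.04 and 0.06 against a median of 0.15. Those most like miR-103-3p were let-7f-5p and miR-101a-3p, at 0.02 and 0.03 against a median of 0.15. None of these 4 passed the test.

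The Srebf2 miRNA miR-33-5p showed no detectable difference. Its log2 signal was 5.14, 5.08, 4.96 and 5.15 in db/db kidneys 1 to 4 and 5.17, 5.22, 5.03 and 5.14 in control kidneys 1 to 4. The groups overlapped over most of their range, and replicate 3 was lowest in both. The means were 5.08 ± 0.09 in db/db and 5.14 ± 0.08 in control kidneys (SD, n = 4 each). The change of -0.06 ± 0.06 (SE; adjusted p = 0.468 in limma) had a 95% interval of -0.20 to 0.08 and was 0.07 with no scaling, so it bounds the difference without showing that the groups were alike. It passed the threshold in 0 of 20 other settings, and its unadjusted p was 0.369 in limma. Its longer probe gave 57.9 ± 2.91 in db/db and 58.8 ± 2.27 in control kidneys, and its shorter probe 9.82 ± 1.12 in db/db and 11.6 ± 2.21 in control kidneys (scaled signal, SD, n = 4 each). The miRNAs most alike in pattern were miR-219a-5p and miR-350-3p, at 0.04 and 0.05 against a median of 0.15, and neither passed.

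The other arm, miR-33-3p, lay below the floor of 2.80 on all 4 of its probes and all 8 arrays. Its probe means ran from -4.28 to -0.73 in db/db kidneys and from -4.34 to -1.20 in control kidneys. None of its spots was well above background in either group. Its probes are 13 to 16 bases long and cover at most bases 7 to 22 of the sequence shown above. A value below the floor is a bound on the signal and not a measured level, so neither the arm ratio nor its change could be computed for miR-33.

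**Figure D3:**
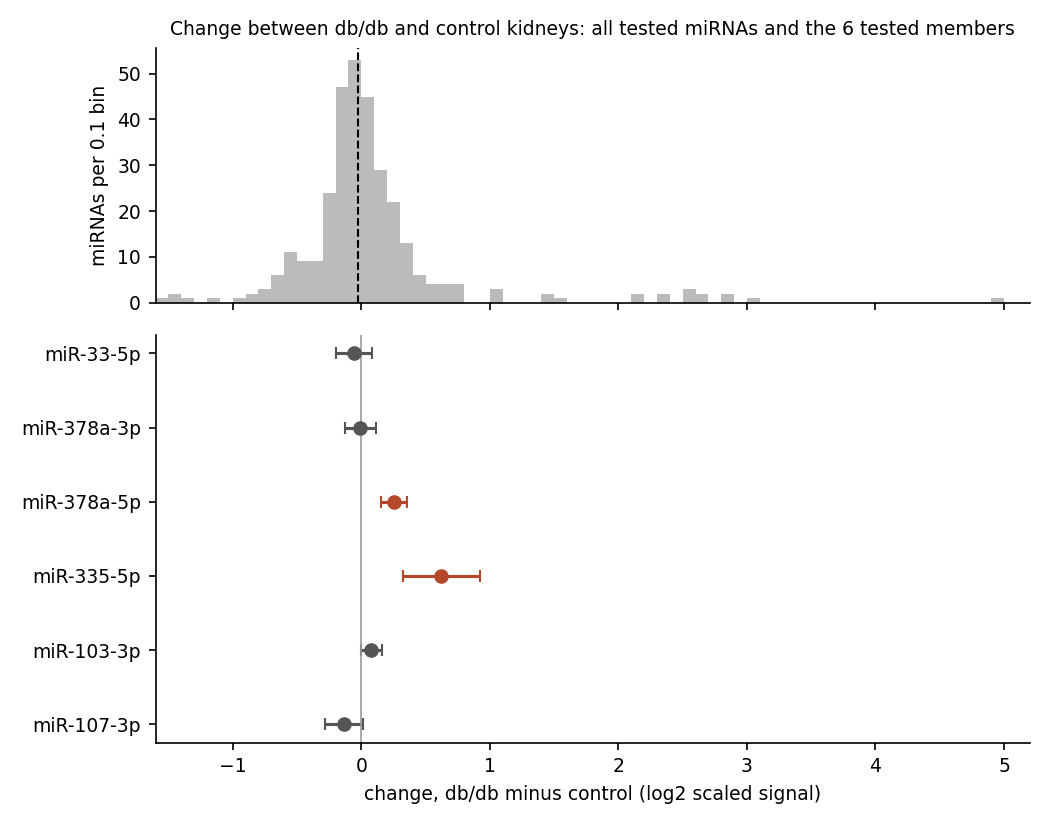
Upper panel, number of miRNAs (y axis) by change between db/db and control kidneys (x axis, log2 scaled signal) for all 316 tested miRNAs, with a dashed line at their median of -0.02. Lower panel, the change of each of the 6 tested miRNAs on the same axis with its 95% interval, in red where the adjusted p was under 0.05; miR-335-5p at 0.62 and miR-378a-5p at 0.25 are the 2 in red.

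Among other miRNAs made from protein-coding genes, more rose than fell. Of 34 listed miRNAs with such hosts outside these metabolic genes, 26 were tested, 10 rose, 1 fell and 15 did not pass, with a median change of 0.11 against -0.02 over all tested miRNAs. The called share of 42.3% was near the 41.8% of all tested miRNAs, of which 24.4% were called higher and 17.4% lower. With the scaling percentile over all miRNAs 2 of the 26 were called higher and 0 lower. miR-204-5p, hosted by Trpm3 and abundant in tubules, rose by 1.05 ± 0.04 (SE), and miR-874-3p, hosted by Klhl3, rose by 0.79 ± 0.07. miR-342-3p, hosted by Evl and expressed in lymphocytes, fell by 0.51 ± 0.05. Their adjusted p-values in limma were 1.94e-06, 0.000120 and 0.000137. With normexp the change was 0.26 for miR-874-3p and -0.26 for miR-342-3p, and miR-342-3p lost its call with the percentile over all miRNAs (adjusted p = 0.245 in limma). Of 20 listed miRNAs linked to lipid or insulin metabolism, 18 were tested, 6 rose, 3 fell and 9 did not pass, with a median of 0.07. Of the 18, 50% were called, against 41.8% of all tested miRNAs, and with the percentile over all miRNAs 2 were called higher and 1 lower. From this list, miR-802-5p, a regulator of insulin sensitivity in liver, rose by 2.57 ± 0.13 (adjusted p = 7.49e-06 in limma). It was detected on 3 of 4 control arrays, and its change ran from 0.72 with normexp to 4.38 in the authors' ratio values, with its call kept in all 19 other settings that gave a value. miR-223-3p, a myeloid miRNA, fell by 0.83 ± 0.09 (adjusted p = 0.000320 in limma), and by 0.49 with normexp. miR-122-5p, the main miRNA of hepatocytes, was called detected in each of the 4 db/db kidneys and in 0 controls.

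Markers of several cell types also differed between the groups, and their part in the changes of miR-335-5p and miR-378a-5p and in the shift between miR-103-3p and miR-107-3p was not tested. Of 6 tubule miRNAs 4 rose and none fell (66.7% called), against 24.4% of all tested miRNAs called higher. Their summed scaled signal was 14879 to 15399 in db/db and 13161 to 13981 in control kidneys. With quantile normalization, and with the percentile over all miRNAs, 1 of the 6 was called. Of 5 leukocyte miRNAs 4 fell and none rose (80% called), against 17.4% of all tested miRNAs called lower. Their sums were 212 to 305 in db/db and 469 to 623 in control kidneys. The 2 endothelial miRNAs did not pass, with sums of 3648 to 3807 in db/db and 3913 to 4194 in control kidneys. Of 4 erythroid miRNAs 2 were tested and did not pass, with overlapping sums of 649 to 3598 in db/db and 708 to 3092 in control kidneys. Among 6 miRNAs of striated muscle, a tissue rich in miR-378a, miR-133a-3p, miR-206-3p, miR-208a-3p and miR-499-5p were detected on no array. miR-1a-3p, the only one tested, had a change of 0.37 (adjusted p = 0.0448 in limma) with overlapping groups, and its call was kept in 8 of 20 other settings. The muscle sums were 19.97 to 34.6 in db/db and 14.4 to 26.7 in control kidneys. Of the neural pair, miR-124-3p was detected on no array and miR-9-5p did not pass.

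**Figure D4:**
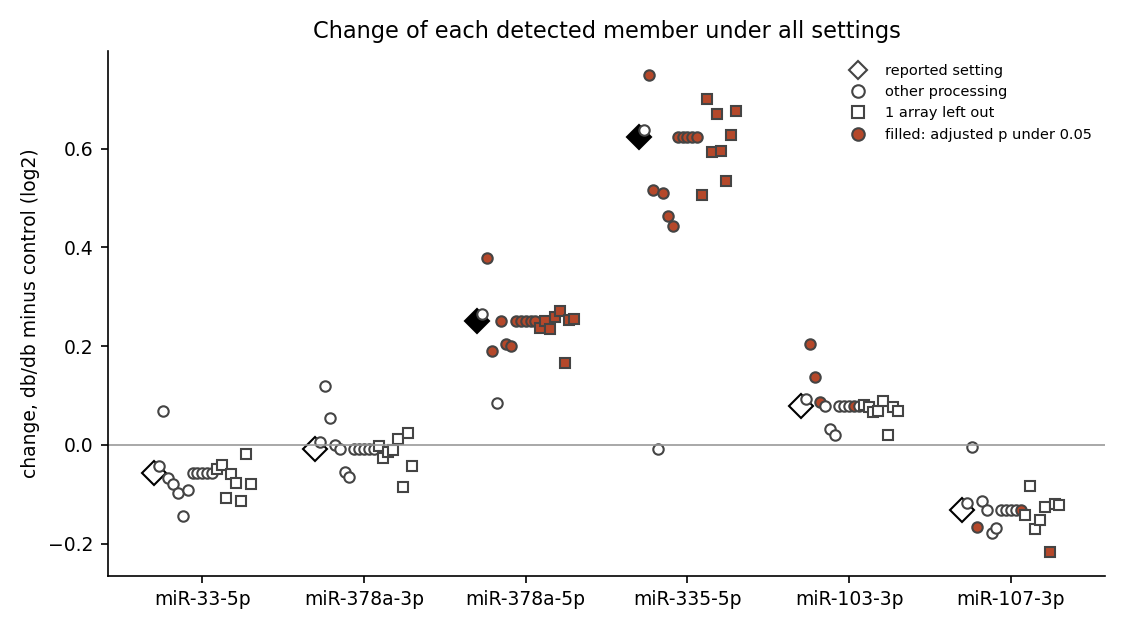
Change between db/db and control kidneys (y axis, log2) of the 6 tested miRNAs under the reported setting (diamond, black where called), other processing (circles) and with 1 array left out (squares), filled red where the adjusted p was under 0.05. The call was kept in 18 of 20 other settings for miR-335-5p and for miR-378a-5p, reached in 4 for miR-103-3p and 3 for miR-107-3p, and in 0 for miR-33-5p and miR-378a-3p.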

How the data were processed

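The members and all lists of miRNAs were chosen with earlier results of these data known. Spot intensity values were made by the authors with Agilent Feature Extraction 12.0.3.1, as the submitters' processing notes name it, with spatial detrending on per the file headers; the labels' protocols give 100 ng of total RNA labelled with Cy3. The deposited scanner files hold 58594 spots per array, 56430 of them for 4415 probes of 1881 miRNAs, and no miRNA spot was saturated. The processed signal was averaged over spots that were not outliers and then over probes. Each array was scaled to an equal 75th percentile over the 269 miRNAs that all 8 arrays detected. Lower values were set to a floor of 2.80 (log2 1.48). The 316 miRNAs that every array of at least 1 group detected were fitted with limma 3.58.1 in R 4.3.3 with the package data.table, version 1.17.8, Benjamini-Hochberg adjusted, 2-sided, threshold 0.05; the number of arrays limits the precision. Other steps used Python 3.11.15, pandas 2.3.3 and matplotlib 3.10.9.

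The differences of 2 miRNAs on 1 array were tested by exact permutation over 70 assignments, whose smallest p is 0.0286; 2 of 4 planned pairs had an undetected arm. The authors also deposited linear ratio values per miRNA and array, whose column medians were 0.857, 1.01, 0.994 and 0.947 in db/db 1 to 4 and 1.11, 1.10, 1.10 and 0.980 in control 1 to 4. A higher ratio means more signal. Each row had been divided by its own constant and each column by its own factor, whose choice no source used here gives. They served as an alternative only. Named were the 8 members, the 2 tested miRNAs most alike to each detected member, and up to 3 of each list, called ones first. Likeness includes the difference between the groups, so the changes of the miRNAs most alike follow from their choice. The steps were tested on simulated data. Sequences came from RefSeq (build GRCm38.p6); the array design names mm9.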

Additional observations from a re-analysis of the deposited data

Results flagged for a closer look

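The log2 signal of miR-107-3p in db/db replicate 2, 11.28, stood apart from the other 3 db/db kidneys at 11.17 to 11.18. It was the 1 value set apart in this way among 12 groups of 4 checked, and chance sets apart about 1 in 20 groups. The control array with the same number was also the highest of its group, at 11.50. These 2 arrays had the fewest detected miRNAs of their groups, 289 in db/db and 305 in control kidneys; whether this bears on miR-107-3p was not tested. Without db/db replicate 2 the change of miR-107-3p was -0.22, with adjusted p = 0.0495 in limma, against -0.13 with all arrays.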

How the results depend on the processing

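In limma fits with Benjamini-Hochberg adjustment, the calls of miR-335-5p and miR-378a-5p were kept in 18 of 20 other settings each. Both were lost with the 75th percentile over all 1881 miRNAs (0.64, adjusted p = 0.0798, and 0.27, adjusted p = 0.810), where the count of called miRNAs was 34 in place of 132, and with normexp (-0.0071 and 0.086), whose offset of 50 is added to each spot. With that offset normexp gave -0.0093 for miR-1a-3p, -0.028 for miR-34c-5p and -0.0083 for miR-503-5p. miR-103-3p passed with no scaling (0.21), quantile normalization (0.14), normexp (0.086) and limma with trend and robust (0.078). miR-107-3p passed with quantile normalization (-0.17). The sign of miR-378a-3p turned with the 75th percentile over all miRNAs (0.0060), no scaling (0.12) and quantile normalization (0.054), that of miR-33-5p with no scaling (0.069), and that of miR-378d with the brightest probe only (-0.012); the cause was not tested. With no scaling the median change of all tested miRNAs was 0.10 in place of -0.02, and 100 of 128 called miRNAs were higher, against 77 of 132 in the reported setting and 68 of 146 with quantile normalization. Relative to that median, no scaling left the 6 members where they were, at 0.10 for miR-103-3p and -0.11 for miR-107-3p. This follows from the arithmetic and tests nothing, because scaling shifts all log2 values of an array above the floor equally. With normexp the difference between miR-103-3p and miR-107-3p was 0.20 and that between the miR-378a arms -0.087. The exact permutation test gave p = 0.0571 and 0.0857 for these, both after adjustment over the 2 pairs.

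With 1 array left out, the change was 0.51 to 0.70 for miR-335-5p, 0.17 to 0.27 for miR-378a-5p, 0.021 to 0.089 for miR-103-3p, -0.22 to -0.084 for miR-107-3p, -0.11 to -0.018 for miR-33-5p, -0.084 to 0.023 for miR-378a-3p, -0.018 to 0.10 for miR-378b and -0.027 to 0.081 for miR-378d. The lowest for miR-103-3p was without db/db replicate 2, where miR-378b and miR-378d also had their lowest values and miR-15b-5p and miR-34c-5p missed the threshold (adjusted p = 0.0568 each). miR-378a-3p was above 0 without db/db replicate 1 (0.012) or 3 (0.023). The pair differences were 0.16 to 0.24 and -0.30 to -0.23, and the count of called miRNAs 114 to 153. With the replicate number as a block, miR-107-3p passed (-0.13, adjusted p = 0.0464), 144 miRNAs were called and the other members kept their side of the threshold. No label says that the numbers pair the samples, and each number is also the slide column of its array in both groups. Deviations of same-numbered arrays had correlations of -0.43, 0.41, -0.05 and -0.07, and 1 of 4 arrays was most like its own number. These values are too few to show or exclude a pairing. The dim signals of miR-335-5p, miR-335-3p and miR-33-3p near background limit what can be said of them.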
